A study of Cervus nippon with 12 samples.

Results

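miR-210 is a short non-coding RNA that cells make when oxygen is scarce. The data on it come from small RNA sequencing of cells of the growing antler of sika deer (Cervus nippon). It was picked by name, as bta-miR-210 with any arm suffix, and 1 of the 545 miRNA names listed for every library met that rule. The name carries no arm suffix. Names with the prefix bta- are those of cattle miRNAs, used here for deer reads. The study followed reserve mesenchyme cells (RMCs), the stem-like cells of the antler tip, while they were driven towards cartilage, and set them beside chondrocytes of the antler. CP_0 held RMCs at day 0 of chondrogenic induction, CP_7 those at day 7 and CP_14 those at day 14, and CC held the antler chondrocytes, which carry no day of induction. Each of the 4 groups had 3 libraries, so that 12 libraries were compared. All samples are labelled wild type, and the antler tips came from adult, 3-year-old male deer. The chondrocytes were cultured cells. For induction, the methods of the study describe RMCs kept in tubes in chondrogenic medium, where they formed cartilage-like nodules. Where the sequenced cells were induced in this way, day, medium and culture format cannot be told apart. The sources do not state the oxygen level during culture. The methods of the study speak of biological replicate experiments for each tissue, but neither they nor the labels tie a library to an animal or a culture. Where libraries of a group shared one, the p-values measure only the spread between these samples, which may be technical.

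When oxygen falls, the hypoxia-inducible factors (HIFs) escape degradation, enter the nucleus and switch on genes for glycolysis, blood vessel growth and survival. The gene of miR-210 is among their best known direct targets, so miR-210 is often called a hypoxamiR. Its described targets include ISCU, which helps to build iron-sulfur clusters for mitochondrial respiration, the ephrin EFNA3 and GPD1L, an enzyme-like protein that affects HIF stability. Cartilage is poorly supplied with oxygen in most places, and chondrocytes of the growth plate need HIF1A to survive. The cartilage of a growing antler differs from most cartilage in that blood vessels run through it.

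Levels are given in RPM, the reads of a miRNA scaled to a total of 1000000 reads over all listed miRNAs of its library. RPM moves with the make-up of a library. miR-21-5p alone took 60.3% ± 1.22 (SD, n = 3) of all reads at day 0, 23.2% ± 1.62 at day 7, 48.2% ± 4.95 at day 14 and 75.2% ± 2.04 in chondrocytes, so that the other miRNAs shared very different remainders. A second scale, TMM RPM, therefore divides the values by trimmed-mean factors that bring the bulk of the miRNAs to a common level. These factors were 0.877 ± 0.0446 (SD, n = 3) at day 0, 1.92 ± 0.210 at day 7, 0.994 ± 0.0510 at day 14 and 0.603 ± 0.0458 in chondrocytes. The gap between the scales was therefore largest for CP_7 and CC. Replicate 3 of CP_0 stood apart from its group in blood miRNAs, and replicate 3 of CP_7 in the endothelial miR-126. In the muscle miRNA miR-206, replicate 3 of CP_0 and replicate 1 of both CP_7 and CP_14 stood apart. The changes of miR-210 without these libraries stand beside the values of those miRNAs.

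miR-210 was found in every library. In CP_0 its level was 15.1, 11.96 and 11.5 RPM in replicates 1, 2 and 3, from 45, 49 and 42 reads. In CP_7 it was 136.4, 152.1 and 142.7 RPM, from 105, 157 and 77 reads. These groups lay far apart, although the CP_7 libraries were the shallowest of the study, with 769655, 1032029 and 539455 reads against 2973442, 4097304 and 3636580 in CP_0. In CP_14 the level was 110.0, 98.9 and 90.6 RPM, from 307, 299 and 350 reads in libraries of 2791559, 3024668 and 3864900. In CC it was 3.61, 2.47 and 4.81 RPM, from 37, 24 and 48 reads in libraries of 10256572, 9714090 and 9970138. The chondrocytes thus had the lowest level in the deepest libraries, CP_0 came next, and the libraries at day 7 and day 14 stood above both. No library of any group overlapped with a library of another group on this scale.

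**Figure D1:**
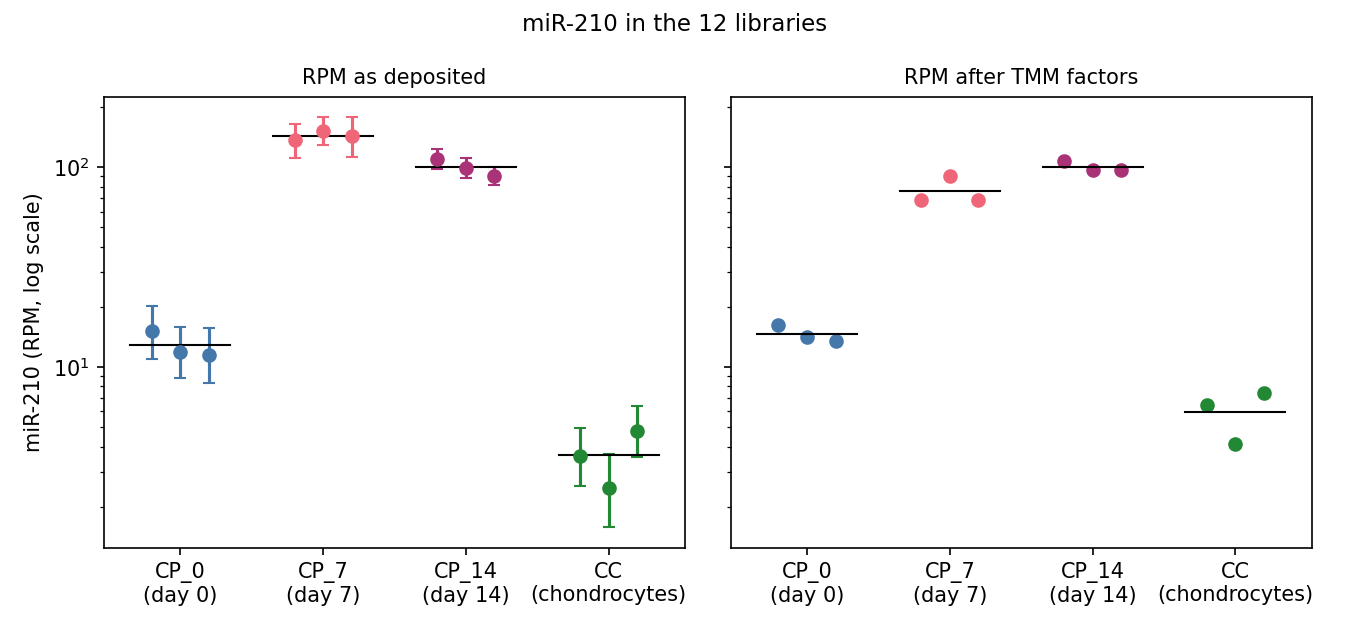
Level of miR-210 in each library of the 4 groups on a log axis, as deposited RPM with 95% Clopper-Pearson intervals (left) and as TMM RPM (right); black lines are the means of 3 libraries. Means were 12.9, 143.8, 99.8 and 3.63 RPM in CP_0, CP_7, CP_14 and CC, and CP_14 lay below CP_7 on the left and above it on the right.

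Counting error was small beside the gaps between CC, CP_0 and the later days, but not beside that between CP_7 and CP_14. The exact 95% Clopper-Pearson interval ran from 8.32 to 15.6 RPM for the lowest CP_0 library, from 111.6 to 165.1 for the lowest CP_7 library, from 81.3 to 100.6 for the lowest CP_14 library and from 1.58 to 3.68 for the lowest CC library. The interval of replicate 1 of CP_14, from 98.0 to 123.0 RPM, overlapped with those of replicates 1 and 3 of CP_7, the latter from 112.6 to 178.4. Such intervals cover counting error only, since reads counted without molecular identifiers can be copies of one molecule. Within a group, the reads of miR-210 followed the depth of the libraries closely in CP_7. The coefficient of variation there was 35.9% for reads, 5.50% for RPM and 16.5% for TMM RPM. The spread around the group's pooled share, as chi-square per degree of freedom, was 0.972 at day 0, 0.386 at day 7, 3.09 at day 14 and 3.71 in chondrocytes. In RPM the CP_0 and CP_7 libraries thus varied no more than counting gives, and the CP_14 and CC libraries varied more. In TMM RPM the coefficient of variation in CP_7 lay above the 9.41% that counting alone gives. In CP_14 it was 6.24% on that scale, beside 5.60% from counting. With 3 libraries per group, these values only describe the spread.

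miR-210 was a miRNA of middling abundance. By reads it held ranks 165, 162 and 176 among all names in the CP_0 libraries and ranks 109, 99 and 109 in CP_7. In CP_14 the ranks were 96, 99 and 99, and in CC they were 201, 215 and 193. It therefore moved up the order of miRNAs during induction and stood lowest in chondrocytes. Its neighbours in the order of mean RPM were different miRNAs in each group. In CP_0 they were miR-16a at 12.9 RPM and miR-146b at 12.3, beside 12.9 ± 1.96 (SD, n = 3) for miR-210. In CP_7 they were miR-339a at 146.8 RPM and miR-27a-5p at 143.5, beside 143.8 ± 7.90 for miR-210. The latter arm belongs to a miRNA that has itself been linked to hypoxia. In CP_14 they were miR-3120 at 103.2 RPM and miR-7857-5p at 92.3, beside 99.8 ± 9.74 for miR-210, and in CC they were miR-29d-5p at 3.64 RPM and miR-95 at 3.61, beside 3.63 ± 1.17 for miR-210.

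miR-210 rose in the first week of induction. On the TMM scale the CP_0 libraries held 16.3, 14.1 and 13.5 TMM RPM and the CP_7 libraries 69.0, 90.3 and 68.2. Every CP_7 library was higher than every CP_0 library. The ratio of the group means was 5.18 in TMM RPM, 11.2 in RPM and 2.49 in plain reads, so that even the reads rose while the libraries shrank. The log2 fold change was 2.36 with a standard error of 0.18 and a 95% interval from 1.93 to 2.78 (limma, adjusted p = 2.73e-05). Fold changes are on the scale of log2(TMM RPM + 1), which understates the change of low miRNAs. For each comparison the TMM factors were fitted anew on its 6 libraries, so fold changes differ somewhat from those of the printed TMM RPM, whose factors come from all 12. With all 12 libraries in one fit they were 2.29 for CP_7 against CP_0, 0.41 for CP_14 against CP_7 and -3.48 for CC against CP_7. The adjusted p takes all miRNAs tested in a comparison into account with a threshold of 0.05. Change was common in this comparison: 63.8% of the 246 miRNAs tested passed the threshold, 35.8% as higher and 28% as lower. The change of miR-210 was the 16th highest of the 246. In bulk samples such as these, more cells that make a miRNA and more of it per cell cannot be told apart.

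Between day 7 and day 14 the direction depended on the scale. The CP_14 libraries held 107.6, 96.6 and 96.9 TMM RPM, above the 3 CP_7 libraries, whereas in RPM they lay below them. The groups did not overlap on either scale, but in opposite order. The ratio of the means was 1.32 in TMM RPM, 0.694 in RPM and 2.82 in plain reads. The log2 fold change of 0.33 with a standard error of 0.13 did not pass the threshold (limma, adjusted p = 0.0701), while 52.8% of the 246 miRNAs tested did. Without replicate 2 of CP_7, the highest of its group, the log2 fold change was 0.54 and passed (limma, adjusted p = 0.0257). With library size as the only scaling it was -0.53 (limma, adjusted p = 0.0117), and without normalization 1.54 (limma, adjusted p = 0.00225). It also passed as higher with upper-quartile factors, at 0.47 (limma, adjusted p = 0.0265), and with edgeR on recovered reads, at 0.43 (edgeR, adjusted p = 0.0311). An order between day 7 and day 14 can therefore not be given for miR-210 without a choice of scale.

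From day 0 to day 14 the rise was similar on every scale. The ratio of the group means was 6.85 in TMM RPM, 7.75 in RPM and 7.03 in plain reads. All 3 CP_14 libraries were higher than all 3 CP_0 libraries. The log2 fold change was 2.71 with a standard error of 0.13 and a 95% interval from 2.41 to 3.01 (limma, adjusted p = 3.1e-06). It was the 7th highest change of the 250 miRNAs tested, of which 46% passed the threshold, 24.8% as higher and 21.2% as lower. The 3 comparisons with CP_0, that of chondrocytes included, share its 3 libraries.

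In chondrocytes miR-210 was lower than in RMCs at any day. The CC libraries held 6.45, 4.13 and 7.40 TMM RPM, and none of them reached the lowest RMC library at 13.5. Against CP_14, the mean of the RMCs was 16.7 times that of the chondrocytes in TMM RPM, 27.5 times in RPM and 8.77 times in plain reads, although the CC libraries held more reads. The log2 fold change of CC against CP_14 was -3.84 with a standard error of 0.19 and a 95% interval from -4.27 to -3.41 (limma, adjusted p = 2.55e-07), the 6th lowest of 276. In this comparison 74.6% of the miRNAs passed the threshold, 37.7% as higher and 37% as lower.

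The gap between chondrocytes and RMCs before induction was smaller. The mean of CP_0 was 2.44 times that of CC in TMM RPM, 3.55 times in RPM and 1.25 times in plain reads. The log2 fold change of CC against CP_0 was -1.26 with a standard error of 0.20 and a 95% interval from -1.75 to -0.76 (limma, adjusted p = 0.0024), the 24th lowest of 260 miRNAs, of which 55.8% passed. Without any normalization it was -0.36 and did not pass (limma, adjusted p = 0.245). Against CP_7 the log2 fold change of CC was -3.74 with a standard error of 0.23 (limma, adjusted p = 1.06e-05), the 9th lowest of 276, of which 67.4% passed. It was -5.00 with library size only and -1.60 without normalization. The mean of CP_7 was 12.7 times that of CC in TMM RPM, 39.6 times in RPM and 3.11 times in plain reads. The 3 comparisons with CC share its libraries.

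Over all 4 groups the order was CC, then CP_0, then CP_7 and CP_14, with means of 5.99 ± 1.69, 14.6 ± 1.48, 75.8 ± 12.5 and 100.3 ± 6.26 TMM RPM (SD, n = 3). Between neighbours in this order, CC and CP_0 differed by more than their spread, and so did CP_0 and CP_7. For CP_7 and CP_14 the difference did not pass the test. An exact permutation test over all 369600 assignments of the 12 libraries to the groups gave a p of 6.49e-05, the smallest it can give. For a pair of groups, the exact two-sided permutation test of 3 against 3 libraries cannot go below 0.1, and gave 0.1 in each of the 6 comparisons. The same order without overlap, with CC below CP_0 and CP_0 below both later days, was met in TMM RPM by 12 of 284 miRNAs (4.23%), miR-210 included, and in RPM by 37 (13%). That rule was written after the values of miR-210 were seen, and describes how often its pattern occurs.

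miR-210 was also set against 8 listed reference miRNAs that are often used as normalizers: miR-16a, miR-16b, miR-25, miR-93, miR-103, miR-191 and both arms of miR-423. Such ratios within a library do not depend on its depth or on miR-21-5p. One of the references, miR-103, is also on the list of miRNAs described as induced by hypoxia, which follows below. The mean log2 ratio of miR-210 to the geometric mean of the references was -4.25 ± 0.24 (SD, n = 3) at day 0, -1.84 ± 0.09 at day 7, -1.53 ± 0.11 at day 14 and -5.86 ± 0.47 in chondrocytes. The ratio was thus higher at day 7 and day 14 than at day 0, and lowest in chondrocytes. With each reference alone, the difference between CP_7 and CP_0 ran from 0.64 (miR-16a) to 3.65 (miR-93), and that between CP_14 and CP_0 from 1.40 to 3.91. The difference between CC and CP_14 ran from -6.44 to -2.48, and that between CC and CP_0 from -2.53 to -1.01. None of these changed sign with the reference. The difference between CP_14 and CP_7 ran from -0.19 (miR-191) to 1.28 (miR-423-3p) and did change sign. The references themselves were not level on any scale given here. Between CC and CP_14, 4 of the 8 passed as higher and 2 as lower with TMM factors, beside 37.7% and 37% of all. Between CP_0 and CP_7, 3 of the 8 passed the test as higher and 4 as lower with TMM factors, beside 35.8% and 28% of all miRNAs, 7 and 0 on library size alone and 0 and 5 without normalization.

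**Figure D2:**
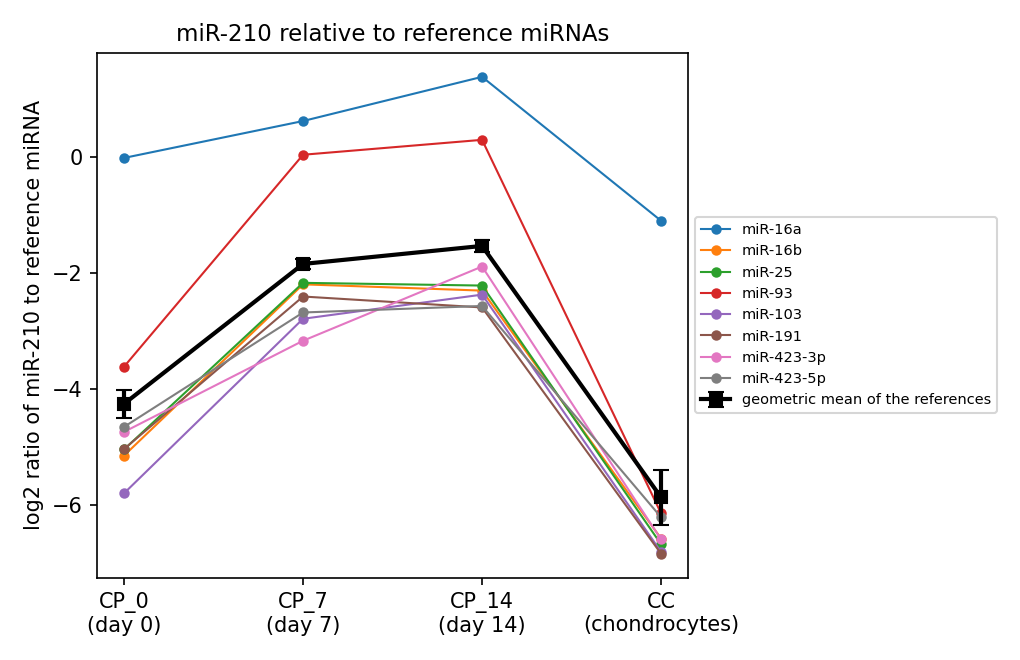
Mean log2 ratio of miR-210 to each of 8 reference miRNAs (thin lines) and to their geometric mean (black squares, with SD over 3 libraries) in the 4 groups. The geometric mean ratio was -4.25, -1.84, -1.53 and -5.86 in CP_0, CP_7, CP_14 and CC, and it was lower in CC than in CP_0 with every reference.

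The choice of scale moved all miRNAs together. In the comparison of CP_7 with CP_0, the median log2 fold change of the 246 miRNAs was 0.07 with TMM factors, -0.24 with upper-quartile factors, 1.12 on library size alone and -1.04 without normalization. The split of called miRNAs moved with it, from 88 higher and 69 lower with TMM factors to 65 and 87 with upper-quartile factors, 152 and 20 on library size alone and 22 and 123 without normalization. Since a change of scale adds nearly the same amount to every log2 fold change, the distance of miR-210 from that median hardly depends on it, which is no separate support for its change. Its log2 fold change minus the median was 2.28 with TMM factors, 2.26 with upper-quartile factors, 2.27 on library size alone and 2.28 without normalization. For CP_14 against CP_0 it was 2.70 with TMM factors and 2.70 with library size only, and for CC against CP_14 it was -3.92 and -3.93. For CP_14 against CP_7 it was 0.34 with TMM factors and 0.31 with library size only.

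**Figure D3:**
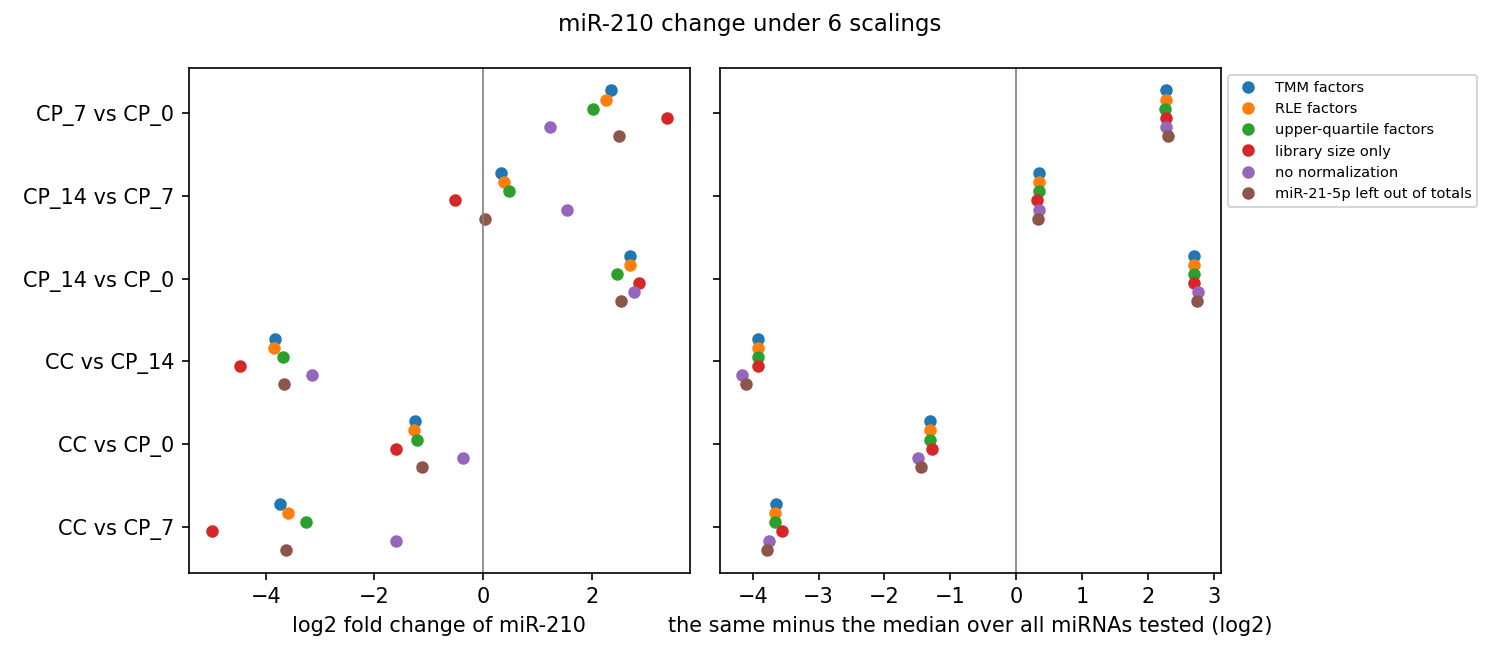
Log2 fold change of miR-210 in the 6 comparisons under 6 scalings (left) and the same values minus the median log2 fold change of all miRNAs tested (right). For CP_14 against CP_7 the left values ran from -0.53 to 1.54 and the right values from 0.31 to 0.35.

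The miRNAs whose pattern was most like that of miR-210 were found by Pearson correlation of log2(TMM RPM + 1) across the 12 libraries, among 283 other miRNAs. The libraries share 4 group levels, so a high value mainly reflects the levels of the groups. The median over the 283 was -0.02. The 8 highest were miR-1246 (0.976), miR-3604 (0.969), miR-199a-3p (0.969), miR-2889 (0.961), miR-6529b (0.940), miR-6529a (0.939), miR-16a (0.920) and miR-199c (0.919). miR-3604 and miR-199a-3p had nearly the same reads in every library, as did miR-6529a and miR-6529b, so these names do not stand for separate measurements. miR-16a is one of the references above, the one with the smallest difference in the ratio between CP_7 and CP_0. By Spearman correlation 4 of these 8 held rank 8 or better, with miR-3604 and miR-199a-3p among 3 miRNAs tied at rank 8. With library size only 5 of the 8 stayed, so that the list depends on the measure. In TMM RPM, 6 of the 8 had a higher mean in CP_7 than in CP_14, whereas miR-210, miR-1246 and miR-2889 had the higher mean in CP_14.

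miR-1246 followed the same steps with a wider range. It held 4.71, 4.61 and 4.50 TMM RPM at day 0, 220.0, 254.8 and 366.9 at day 7, 643.2, 627.5 and 514.9 at day 14 and 1.39, 2.41 and 1.54 in chondrocytes. Each group lay apart from the others on this scale, and CC was again the lowest. In RPM the later days overlapped, with 435.3, 429.3 and 767.4 at day 7 and 657.7, 642.4 and 481.3 at day 14. Its log2 fold change was 5.72 for CP_7 against CP_0 (limma, adjusted p = 3.42e-06) and -7.61 for CC against CP_14 (limma, adjusted p = 2.9e-10), larger than those of miR-210. In reads it rested on 13 to 16 per library in CP_0 and 8 to 14 in CC. miR-2889 had 2 or 3 reads in each CP_0 library, 9 to 17 in CP_7, 56 to 88 in CP_14 and 0 in all 3 CC libraries. A count of 0 there allows up to 0.292, 0.309 and 0.301 RPM (3 reads). miR-199c, at 53.2 ± 7.52, 206.6 ± 46.9, 133.6 ± 12.8 and 41.8 ± 4.80 TMM RPM (SD, n = 3) in CP_0, CP_7, CP_14 and CC, was one of those 6.

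The 4 miRNAs least like miR-210 were miR-106b (-0.970), miR-125b (-0.963), miR-17-5p (-0.951) and miR-20a (-0.947). miR-17-5p and miR-20a are made from the miR-17-92 cluster, which promotes cell division, and miR-106b belongs to a related cluster. miR-106b held 55.1, 68.0 and 64.2 TMM RPM at day 0, 28.9, 29.9 and 25.7 at day 7, 30.5, 31.6 and 31.3 at day 14 and 74.4, 84.1 and 84.7 in chondrocytes. It was thus high where miR-210 was low, with no overlap between the libraries of the later days and those of CP_0 or CC. This opposite order was a matter of scale in part. With library size only, the correlation was -0.34 for miR-106b, -0.49 for miR-17-5p, -0.65 for miR-20a and 0.40 for miR-125b.

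Other miRNAs have been described as induced by hypoxia in cultured cells, among them the miR-23, miR-24 and miR-27 families, miR-26a and miR-26b, miR-103 and miR-107, and the miR-181 family. A list of 13 such names without miR-210 matched 16 listed miRNAs, all with reads. Of the 16 tested between CP_0 and CP_7, 8 were higher and 6 lower at day 7 by limma, where 35.8% of all miRNAs were higher and 28% lower. The median log2 fold change was 0.32 against 0.07 over all miRNAs. The split was 5 and 6 with RLE factors, 5 and 7 with upper-quartile factors, 13 and 1 on library size alone and 2 and 9 without normalization. Over all miRNAs the split moved in the same way, as given above, except with RLE factors. With these it was 78 and 74, still with more higher than lower. Members thus passed in both directions with TMM factors, while miR-210 was higher.

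At day 14, 3 of the 15 members tested were higher than at day 0 and 5 lower, where 24.8% of all miRNAs were higher and 21.2% lower. The median was -0.17 against 0.01 over all miRNAs, while miR-210 stood at 2.71. That split was 3 and 11 with upper-quartile factors, 3 and 9 once miR-21-5p was dropped from the totals and 4 and 4 with library size only. Over all 250 miRNAs it was 62 higher and 53 lower with TMM factors, 50 and 91 with upper-quartile factors, 49 and 79 with miR-21-5p left out and 76 and 33 with library size only. Between CC and CP_14, where miR-210 fell by 3.84 on the log2 scale, 7 of 16 members were higher in chondrocytes and 5 lower, beside 37.7% and 37% of all miRNAs, with a median of -0.14 against 0.09. The split was 2 and 11 with library size only and 11 and 2 without normalization, and that over all 276 miRNAs went from 104 and 102 to 40 and 163, 172 and 37 without normalization, and 138 and 70 with miR-21-5p left out. Between CP_14 and CP_7, 2 of 15 members were higher at day 14 and 8 lower, beside 24.4% and 28.5% of all miRNAs, with a median of -0.34 against -0.01. The split was 1 and 13 on library size alone and 10 and 2 without normalization, where that over all 246 miRNAs was 26 and 138, and 148 and 12. Between CC and CP_0, 3 of 16 were higher in chondrocytes and 7 lower, beside 30% and 25.8% of all, with a median of -0.22 against 0.05. It was 1 and 10 on library size alone, 11 and 1 without normalization and 5 and 4 with miR-21-5p left out, and over all 260 miRNAs 30 and 112, 191 and 13, and 110 and 38. Between CC and CP_7, 3 of 16 were higher and 8 lower, beside 29% and 38.4% of all, with a median of -0.65 against -0.09. It was 8 and 8 with upper-quartile factors, 1 and 15 on library size alone and 10 and 0 without normalization, and over all 276 miRNAs 116 and 77, 20 and 191, and 203 and 22. In the last 2 comparisons more members were lower than higher with TMM factors, the direction of miR-210. The splits of the list turned with the scaling, as did those of all miRNAs, except for the list in CP_14 against CP_0. There no printed split held more members higher than lower. Of the 15 members tested in that comparison, 12 kept their sign under every scaling, 4 as higher and 8 as lower.

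By Pearson correlation the members nearest to miR-210 were miR-26b (0.890), miR-181b (0.825), miR-27a-3p (0.771) and miR-181a (0.755). miR-26b held 527.1, 544.9 and 513.1 TMM RPM at day 0, 1109, 1288 and 1057 at day 7, 886.0, 948.1 and 978.0 at day 14 and 566.7, 556.1 and 565.3 in chondrocytes. Its log2 fold change was 1.17 at day 7 (limma, adjusted p = 2.73e-05) and 0.84 at day 14 (limma, adjusted p = 5.82e-05), each against day 0. Without normalization the former was 0.01 and the latter 0.86. The miR-181 family is best known from lymphocyte development. miR-181b held 118.1, 124.5 and 111.1 TMM RPM at day 0, 851.8, 1008 and 685.9 at day 7, 405.0, 390.8 and 501.8 at day 14 and 178.9, 163.8 and 159.1 in chondrocytes. It was highest at day 7, and on this scale its chondrocyte libraries lay above those of day 0. That direction turned with the scaling, since the log2 fold change of CC against CP_0 was 0.37 with TMM factors and -0.04 with library size only. Its log2 fold change was 2.87 at day 7 against day 0 (limma, adjusted p = 4.23e-06) and 1.88 at day 14 against day 0 (limma, adjusted p = 1.5e-05), with the same sign under all 6 scalings. miR-181a went from 524.2 ± 24.8 TMM RPM (SD, n = 3) at day 0 to 2510 ± 345 at day 7 and 2222 ± 180 at day 14, with 1081 ± 72.4 in CC. miR-181d was high at day 7 only, at 73.4 ± 12.3 TMM RPM against 18.8 ± 0.477 in CP_0, 13.7 ± 1.57 in CP_14 and 11.3 ± 3.19 in CC.

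The arms of miR-27a moved apart. miR-27a-5p held 685.1, 677.2 and 659.5 TMM RPM in CP_0 and 78.8, 66.1 and 78.0 in CP_7, a log2 fold change of -3.12 (limma, adjusted p = 3.42e-06) with the same sign under all 6 scalings. It thus fell steeply where miR-210 rose. miR-27a-3p was 4744 ± 470 TMM RPM (SD, n = 3) in CP_0 and 6058 ± 973 in CP_7, with a log2 fold change of 0.40 (limma, adjusted p = 0.0311) that was -0.76 without normalization. miR-103, which shares most of its sequence with miR-107, was 809.3 ± 36.7 TMM RPM in CP_0 and 520.5 ± 66.3 in CP_7, with a log2 fold change of -0.59 (limma, adjusted p = 0.00192) that was 0.48 with library size only.

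**Figure D4:**
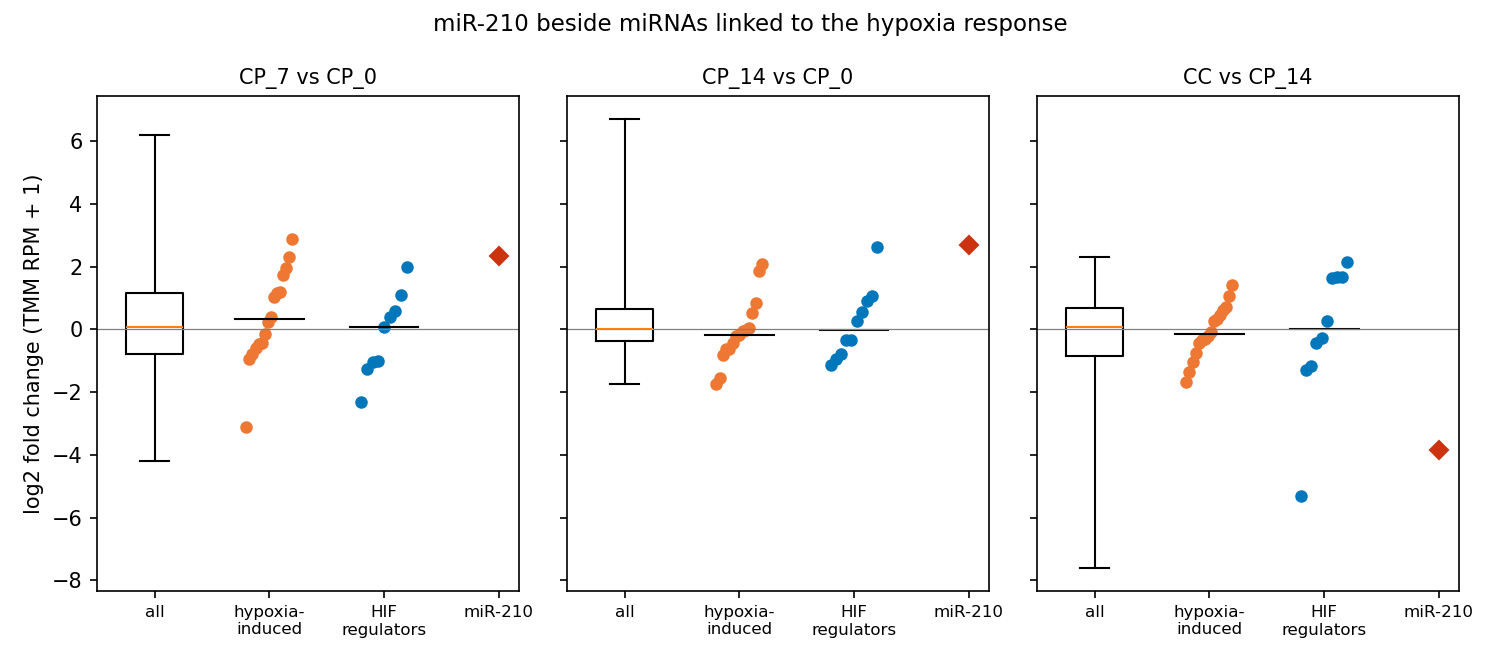
Log2 fold changes on the TMM scale for all miRNAs tested (box: quartiles, whiskers: full range), the listed hypoxia-induced miRNAs, the listed HIF pathway regulators (points, black line: median) and miR-210 (diamond) in 3 comparisons. miR-210 lay at 2.36, 2.71 and -3.84, and the medians of the hypoxia-induced list at 0.32, -0.17 and -0.14; these medians change sign or size with the scaling.

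A second list held miRNAs described as acting on the HIF pathway, such as miR-17, miR-18a, miR-20a and miR-199a, which have HIF1A among their described targets, miR-31 and miR-184, described to act on the HIF inhibitor FIH, and miR-424, which acts on the ubiquitin ligase scaffold CUL2. Its 10 names matched 13 listed miRNAs, all with reads, but miR-20b had 6 reads in all 12 libraries together, miR-31 had 45 and miR-138 had 47. Between CP_0 and CP_7, 9 were tested, of which 4 were higher and 4 lower (4 and 1 with library size only, 0 and 5 without normalization), beside 35.8% and 28% of all miRNAs. Between CP_0 and CP_14, 10 were tested, of which 4 were higher and 4 lower, beside 24.8% and 21.2% of all, and each of the 10 kept its sign under all 6 scalings. Between CC and CP_14, 4 of 10 were higher in chondrocytes and 3 lower (4 and 5 with library size only, 6 and 1 without normalization), beside 37.7% and 37% of all. The medians were 0.07, -0.02 and 0.01 in the same order, against 0.07, 0.01 and 0.09 over all miRNAs. Between CP_14 and CP_7, 4 of 9 were higher and 3 lower, beside 24.4% and 28.5% of all miRNAs. Between CC and CP_0, 4 of 10 were higher and 2 lower, beside 30% and 25.8%, and between CC and CP_7, 6 of 11 were higher and 4 lower, beside 29% and 38.4%. On library size alone these splits were 1 and 5, 2 and 4, and 2 and 6, where those of all miRNAs were 26 and 138, 30 and 112, and 20 and 191. The medians of the list were 0.02, 0.00 and 0.54 with TMM factors, against -0.01, 0.05 and -0.09 over all miRNAs, so that in CC against CP_7 the median lay opposite to miR-210. On library size alone this last median was -0.85, against -1.44 over all.

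Within this list miR-199a-3p had the highest Pearson correlation with miR-210, as given above, and miR-184 the next (0.886). miR-199a-3p held 6124, 5435 and 5444 TMM RPM at day 0, 10660, 12743 and 12131 at day 7, 10978, 10535 and 9968 at day 14 and 4625, 4662 and 4972 in chondrocytes. On this scale it was lowest in CC, then CP_0, like miR-210, but its log2 fold change from day 7 to day 14 was -0.25 (limma, adjusted p = 0.0175), which turned to a rise of 0.97 without normalization. Without normalization its log2 fold change was -0.04 for CP_7 against CP_0 and 0.70 for CC against CP_0, beside 1.11 and -0.38 with TMM factors. miR-184 held 126.8, 123.1 and 118.2 TMM RPM at day 0, 134.6, 182.3 and 156.9 at day 7, 779.9, 753.1 and 751.0 at day 14 and 16.9, 19.3 and 18.0 in chondrocytes. Most of its rise on this scale came between day 7 and day 14, and chondrocytes again had the lowest level. The log2 fold change was 2.64 for CP_14 against CP_0 (limma, adjusted p = 2.01e-07) and -5.31 for CC against CP_14 (limma, adjusted p = 7.09e-11). For CP_7 against CP_0 it was 0.40 (limma, adjusted p = 0.0204), and -0.75 without normalization.

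Other members of the list went their own ways. The other arm of miR-199a, miR-199a-5p, was 1852 ± 82.0 TMM RPM (SD, n = 3) at day 0 and 2694 ± 342 at day 7. It was 1466 ± 208 at day 14 and 4744 ± 430 in chondrocytes, where it was highest. Its log2 fold change for CC against CP_14 was 1.69 (limma, adjusted p = 4.04e-07), opposite to miR-210, with the same sign under all 6 scalings. miR-155, a miRNA of immune and inflammatory responses, was 715.5 ± 71.3 TMM RPM (SD, n = 3) at day 0, 2847 ± 818 at day 7, 1061 ± 304 at day 14 and 871.6 ± 116.8 in chondrocytes, a peak at day 7. miR-18a, of the miR-17-92 cluster, was at 22.2 ± 1.82 TMM RPM at day 0, 3.90 ± 1.64 at day 7, 12.4 ± 1.51 at day 14 and 41.3 ± 3.20 in chondrocytes. It was lowest at day 7 and highest in chondrocytes. Its log2 fold change from day 7 to day 14 was 1.49 (limma, adjusted p = 0.0057), and that from day 0 to day 7 was -2.31 (limma, adjusted p = 0.000454), each with the same sign under all 6 scalings. miR-20a rose by 2.16 on the log2 scale from CP_14 to CC (limma, adjusted p = 2.29e-06), where miR-210 fell by 3.84, and its sign held under all 6 scalings.

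miRNAs of other cell types were read beside miR-210. The 3 listed cartilage miRNAs, miR-140 and both arms of miR-455, were present in every library, with summed levels from 9043 to 11415 RPM, and miR-140 was the most abundant of them in each. On the TMM scale, miR-140 was lower at day 7 than at day 0, with a log2 fold change of -1.03 (limma, adjusted p = 2.6e-05) that was 0.05 with library size only. In CC it was higher than in CP_14 by 0.78 and than in CP_7 by 1.46, against 0.07 and 0.07 with library size only, so that on the TMM scale it moved opposite to miR-210 in these comparisons. Of the 3 tested between CP_7 and CP_0, 1 was higher and 1 lower, beside 35.8% and 28% of all miRNAs, and between CP_14 and CP_0, 1 was higher and 0 lower, beside 24.8% and 21.2%. Between CC and CP_14, 2 were higher and 0 lower, beside 37.7% and 37%. Between CC and CP_0 all 3 were higher in chondrocytes by limma, with the same sign under all 6 scalings, where 30% of all miRNAs were higher and 25.8% lower. Their part in the result for miR-210 was not tested.

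Muscle miRNAs were read in the same way. The 4 listed, miR-1, miR-133a, miR-133b and miR-206, summed to 576.1, 535.5 and 683.3 RPM at day 0, 4940, 6633 and 4536 at day 7, 1756, 1699 and 1685 at day 14 and 718.7, 722.9 and 751.6 in chondrocytes. All 4 had reads in every library except miR-206 in replicate 3 of CP_7, and miR-1 was the most abundant. The sum, mostly miR-1, was high at day 7 and day 14, and its chondrocyte values lay below those of both later days but not below those of day 0. Against day 0, 3 of the 4 were higher at day 7, beside 35.8% of all miRNAs, and 3 at day 14, beside 24.8%. In chondrocytes, 4 of 4 were lower than in CP_14, beside 37% of all, and 3 of 4 lower than in CP_7, beside 38.4%, the direction of miR-210. Without normalization 1 was lower and 1 higher against CP_14, and 0 lower and 1 higher against CP_7. In the tests of the later days against day 0, the member without a call was miR-206. It had 1, 1 and 52 reads in CP_0, 263, 7 and 0 in CP_7 and 148, 37 and 31 in CP_14. It was not called at day 7 (limma, adjusted p = 0.523) or day 14 (limma, adjusted p = 0.0859). Without replicate 1 of CP_7, where miR-206 was highest, the log2 fold change of miR-210 was 2.18 for CP_7 against CP_0. It was then 0.35 for CP_14 against CP_7 and -3.43 for CC against CP_7. Without replicate 1 of CP_14, the log2 fold change of miR-210 was 2.63 for CP_14 against CP_0 and 0.30 for CP_14 against CP_7. For CC against CP_14 it was -3.78. Their part in the result for miR-210 was not tested.

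Blood miRNAs split the libraries in another way. The 6 listed (miR-451, miR-144, miR-486, miR-223 and both arms of miR-142) summed to 16.1, 14.4 and 4220 RPM at day 0, 23.4, 159.9 and 59.3 at day 7, 5194, 4543 and 3504 at day 14 and 1466, 1466 and 1393 in chondrocytes. Replicate 3 of CP_0 thus stood apart from its group, while miR-210 had 11.5 RPM in it beside 15.1 and 11.96 in the others. miR-486 or miR-451 was the most abundant in every library. In chondrocytes, 3 of 4 tested were lower than in CP_14, beside 37% of all miRNAs, the direction of miR-210. Without normalization miR-451 and miR-486 stood at 0.03 and 0.06 there. Against CP_7, 2 of 3 were higher in chondrocytes, beside 29% of all, opposite to miR-210. At day 14, 3 of 3 were higher than at day 7, beside 24.4% of all. In the comparisons with CP_0, 0 passed. Their part in the result for miR-210 was not tested. miR-144 had 0 reads in 9 of the 12 libraries, miR-223 in all 3 of CP_7 and replicate 1 of CP_0, miR-142-3p in 4 of the 12 and miR-142-5p in replicate 1 of CP_7. Without replicate 3 of CP_0 the log2 fold change of miR-210 was 2.28 at day 7 and 2.65 at day 14, each against day 0, close to 2.36 and 2.71 with it, and that of CC against CP_0 was -1.30, beside -1.26.

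The endothelial miRNA miR-126, as both arms together, summed to 63.6, 47.1 and 58.6 RPM at day 0, 188.4, 322.7 and 3083 at day 7, 82.0, 83.6 and 57.4 at day 14 and 28.4, 35.6 and 38.5 in chondrocytes. Replicate 3 of CP_7 was far above the others, mostly by miR-126-3p, and miR-126-5p had 0 reads in replicate 2 of CP_7. In those libraries miR-210 was 142.7 and 152.1 RPM. Without replicate 3 of CP_7 the log2 fold change of miR-210 against CP_0 was 2.33, that of CP_14 against CP_7 was 0.34 and that of CC against CP_7 was -3.56. Of the 2 arms, 1 was lower in chondrocytes than in CP_14, beside 37% of all miRNAs, and 1 than in CP_7, beside 38.4%. This was miR-126-3p, in the direction of miR-210, but its change against CP_14 was 0.51 without normalization. In CC against CP_0 and among the RMC groups 0 passed. The part of miR-126 in the result for miR-210 was not tested. Of 6 epithelial names, 5 were listed, and they were scarce, with sums from 27.3 to 38.8 RPM at day 0, 33.1 to 44.4 at day 14 and 11.9 to 14.8 in chondrocytes, and miR-200a was the most abundant in every library outside CP_7. In CP_7, miR-141 had 0 reads in all 3 libraries, miR-205 in 2 and miR-200a and miR-200b in 1 each, and miR-141 had 0 in replicate 3 of CP_14. At day 7 the sums were 3.90, 6.78 and 16.7 RPM, and the last lay above every CC library. In chondrocytes, 3 of 4 epithelial names tested were lower than in CP_14, beside 37% of all miRNAs. Against CP_0, 2 of 4 were lower, beside 25.8%, both in the direction of miR-210. Against CP_7, 2 of 2 were higher, beside 29%, opposite to it. Their part in the result for miR-210 was not tested.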

How the data were processed

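The authors deposited 1 value for each of 545 miRNA names per library under the header TPM. These values were made by the authors as RPM, the reads on a name scaled to 1000000 listed reads in the library, with no division by length. Per the submitters' processing notes, CASAVA, bcl2fastq 1.8.4 and Bowtie were used; the miRNA database version is not given in the sources used here. All values (100%) were whole multiples of 1 read within 0.01 read, so reads were recovered. Depth ran from 539455 to 10256572 reads. No libraries of a group agreed within sampling noise (chi-square per degree of freedom at least 4.92). No other name shared the reads of miR-210 within 1%. There were 0 unmapped columns.

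For each pair of groups, limma 3.58.1 with an intensity trend was fitted to log2(TMM RPM + 1) of the miRNAs passing filterByExpr of edgeR 4.0.16 (minimum count 10, minimum total 15), in R 4.3.3, with Benjamini-Hochberg adjustment and a threshold of 0.05. Exact tests and intervals used Python 3.11.15 and scipy 1.17.1. The fit was tested on simulated data with changes planted in both directions. From 80.95% (CC against CP_7) to 99.1% (CC against CP_14) of these were recovered. From 0.877% (CC against CP_0) to 6.42% (CC against CP_7) of calls were false. Apart from the planted changes both groups had the same profile, so the unlike shares of miR-21-5p were not copied. The alternatives were other scalings (RLE, upper-quartile, library size only, none, miR-21-5p left out), pseudocounts of 0.5 and 5 RPM, no filter, all 12 libraries in one fit, a replicate block, edgeR and DESeq2 1.42.0 on recovered reads, a 2-fold minimum and leaving out each library. The miRNAs named are miR-210, members of the lists, the 8 most and 4 least correlated with miR-210 and its neighbours by mean RPM. miR-210 and the lists (hypoxia-induced, HIF pathway regulators, cartilage, blood, endothelium, skeletal muscle, epithelium, reference) were chosen with earlier results of these data known. Levels are not compared between miRNAs beyond their order in reads. No sequences are shown.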

Additional observations from a re-analysis of the deposited data

How the results depend on the processing

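Of 133 alternative values for miR-210, 127 kept the side of the threshold and, where they had one, the direction. The 19 alternatives of the test over 4 groups are p-values without a direction. Dropping the filter, the replicate block and the 2-fold minimum could not move a log2 fold change. The exceptions were for CP_14 against CP_7 and for CC against CP_0. For CP_14 against CP_7 (0.33), the log2 fold change was -0.53 with library size only, 0.47 with upper-quartile factors, 1.54 without normalization and 0.43 with edgeR on recovered reads, each past the threshold, and ran from 0.30 to 0.54 when 1 library was left out, past it only without replicate 2 of CP_7. Adjusted p-values over its alternatives ran from 0.00225 to 0.797. For CC against CP_0 it was -0.36 without normalization (limma, adjusted p = 0.245; alternatives from 0.000282 to 0.245). The cause was not tested. For CP_7 against CP_0 the alternatives ran from 1.24 to 3.39, for CP_14 against CP_0 from 2.42 to 2.87, for CC against CP_14 from -4.47 to -3.11 and for CC against CP_7 from -5.00 to -1.60. The exact p over 4 groups ran from 6.49e-05 to 0.00039. Of the 8 miRNAs most like miR-210, 5 stayed with library size only, and 4 held rank 8 or better with Spearman, or 3 where the 3 miRNAs tied at rank 8 were cut in the order of sorting. With a 2-fold minimum the called miRNAs fell from 130 to 76 (CP_14 against CP_7), 115 to 48 (CP_14 against CP_0), 206 to 98 (CC against CP_14) and 145 to 51 (CC against CP_0).

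Of 18 same-numbered pairs of libraries, 4 had deviations correlated above 0.1 (range -0.29 to 0.17), and 3 of these 4 were the pairs of CC and CP_7 (0.13, 0.12 and 0.17). In all, 2 of 12 libraries correlated best with their own number. With the replicate number as a block, the log2 fold changes were the same and miR-210 kept its side of the threshold in all 6 comparisons, while called miRNAs went from 157 to 151 (CP_7 against CP_0), 130 to 100, 115 to 105 (CP_14 against CP_0), 206 to 189 (CC against CP_14), 145 to 118 and 186 to 189. For CC against CP_7 the adjusted p of miR-210 was 0.000145 with the block (limma). Its reads were 24 to 48 per library in CC and 42 to 49 in CP_0.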

Other observations

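Summed blood miRNA reads were nearly even across libraries of unlike depth, a pattern seen after the values were known. Replicate 3 of CP_0 held 15347 such reads, the CP_14 libraries 14498, 13742 and 13544 and the CC libraries 15039, 14241 and 13889, although the shallowest CC library held 9714090 reads in all and the deepest CP_14 library 3864900. Replicates 1 and 2 of CP_0 held 48 and 59, and the CP_7 libraries 18, 165 and 32. The reads of miR-210 were 45, 49 and 42 in CP_0 and 37, 24 and 48 in CC, of similar number in these groups of unlike depth, and the CP_0 libraries were not split by them.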
